A study of Mus musculus with 80 samples.

Results

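The genes described here are Ppp1r1b, Adora2a, Pde10a, Rgs9 and Rasd2, which are highly expressed in the medium spiny projection neurons of the striatum. They were taken by name, with no threshold on a measured value, and make up 5 of the 27179 genes in the count table. Levels are given as CPM, the gene's reads scaled to 1000000 counted reads of its library. A gene was tested if it reached 5 CPM in 8 or more libraries, which all 5 did and which left 13016 genes. RNA-seq libraries came from the hypothalamus, amygdala, hippocampus, cortex and cerebellum of 16 C57BL/6J females (C57BL/6 in the sample labels), 8 virgin and 8 primiparous (1 litter), and no library was made from the striatum. The primiparous females had been penned with a male for 2 weeks from about 8 weeks of age and had reared and weaned their pups. The sample labels place the harvest 3 weeks after weaning, while the study's methods give a longer interval. The virgin females were age-matched, unmated and kept in groups without males, so that contact with a male, mating, litter and housing cannot be told apart between the states. The hypothalamus was used whole and the other regions from the left side. The libraries of a region were sequenced as 1 pool, so that region and pool cannot be told apart either.

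Medium spiny neurons are the inhibitory output cells of the striatum, and dopamine and adenosine receptors on them set the level of cyclic AMP and the activity of protein kinase A. The 5 genes act along this route: Adora2a encodes an adenosine receptor that raises cyclic AMP, Pde10a a phosphodiesterase that breaks down cyclic AMP and cyclic GMP, and Ppp1r1b (DARPP) a protein that protein kinase A turns into an inhibitor of protein phosphatase-1. Rgs9 encodes a regulator that shortens G protein signals, and Rasd2 (Rhes) a small GTPase that dampens dopamine and adenylyl cyclase signalling. Each of them is also transcribed outside the striatum, for example Ppp1r1b in cortical neurons and Rgs9 in photoreceptors. The data were used to ask how much of each transcript the 5 dissections held, how evenly the libraries of a dissection held it, and whether virgin and primiparous females differed. In RNA from whole tissue, fewer cells of a type and less RNA per cell cannot be told apart.

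The authors had already removed 3 virgin libraries as outliers, 1 each of amygdala, hippocampus and cerebellum, which bears on any spread given here. The 77 libraries held 7959192 to 37871854 counted reads. The dissections were checked with marker genes: summed over 5 cerebellar markers, the cerebellum held 5146 to 5901 CPM and the other regions at most 30.5 CPM, except for the hippocampal library of primiparous female 413 with 460 CPM. In that library the 5 genes lay within the range of the other 14 hippocampal libraries, and leaving it out changed no call between regions. The hypothalamus held 917 to 1580 CPM of 8 hypothalamic markers, against at most 81.7 CPM elsewhere. The 7 amygdalar markers did not set the amygdala apart, since they summed to 180 to 289 CPM there and to 185 to 211 CPM in the cerebellum. Olfactory bulb markers summed to between 9.19 and 366 CPM in cortical libraries. In the amygdala, the libraries of virgin females 405 and 409 stood apart, and results that rest on them are given with and without them. These were the only 2 of 8 virgin females with a 3-digit number, which 7 of the 8 primiparous females also carried, and what the number series stands for is not given in the sources used here. A fit that holds both state and number series can thus hardly tell them apart. A call lost in such a fit decides nothing between them.

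Each of the 5 genes had its own order of regions, and no region was highest for all. Ppp1r1b was highest in the cerebellum, Adora2a in the amygdala, Rgs9 in the hypothalamus and Rasd2 in the cortex, while Pde10a was lowest in the hypothalamus and the cortex. In edgeR's quasi-likelihood test, with p-values adjusted over all 13016 genes by the Benjamini-Hochberg method (called under 0.05), 44 of the 50 comparisons of a gene between 2 regions were called. All 5 genes were called in 6 of the 10 pairs of regions, namely hypothalamus against amygdala (71.0% of all genes called), hypothalamus against cortex (77.7%), hypothalamus against cerebellum (81.1%), amygdala against cortex (62.5%), hippocampus against cortex (67.0%) and cortex against cerebellum (79.9%). Of the others, 4 of 5 were called in hypothalamus against hippocampus (73.0%) and amygdala against cerebellum (80.2%), and 3 of 5 in amygdala against hippocampus (58.7%) and hippocampus against cerebellum (78.7%). Most genes differed between regions, so these counts lie near the background and say nothing particular to the 5 genes. The share of all genes without overlap between regions is not given here, so overlaps between regions are given below as a description. Adora2a reached the filter's 5 CPM only in amygdala and cortex libraries. It was at most 3.29 CPM in the hypothalamus, 2.34 CPM in the hippocampus and 3.53 CPM in the cerebellum. It was thus tested only through the regions where it was high, so its calls of these against the others support no conclusion. Per kilobase of exon, genes can be compared only roughly, since the exon lengths came from GENCODE and not from the annotation used for counting. On this scale mean levels reached 63.9 CPM for Ppp1r1b in the cerebellum, 31.6 CPM for Rasd2 in the cortex and 3.87 CPM for Adora2a in the amygdala.

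**Figure D1:**
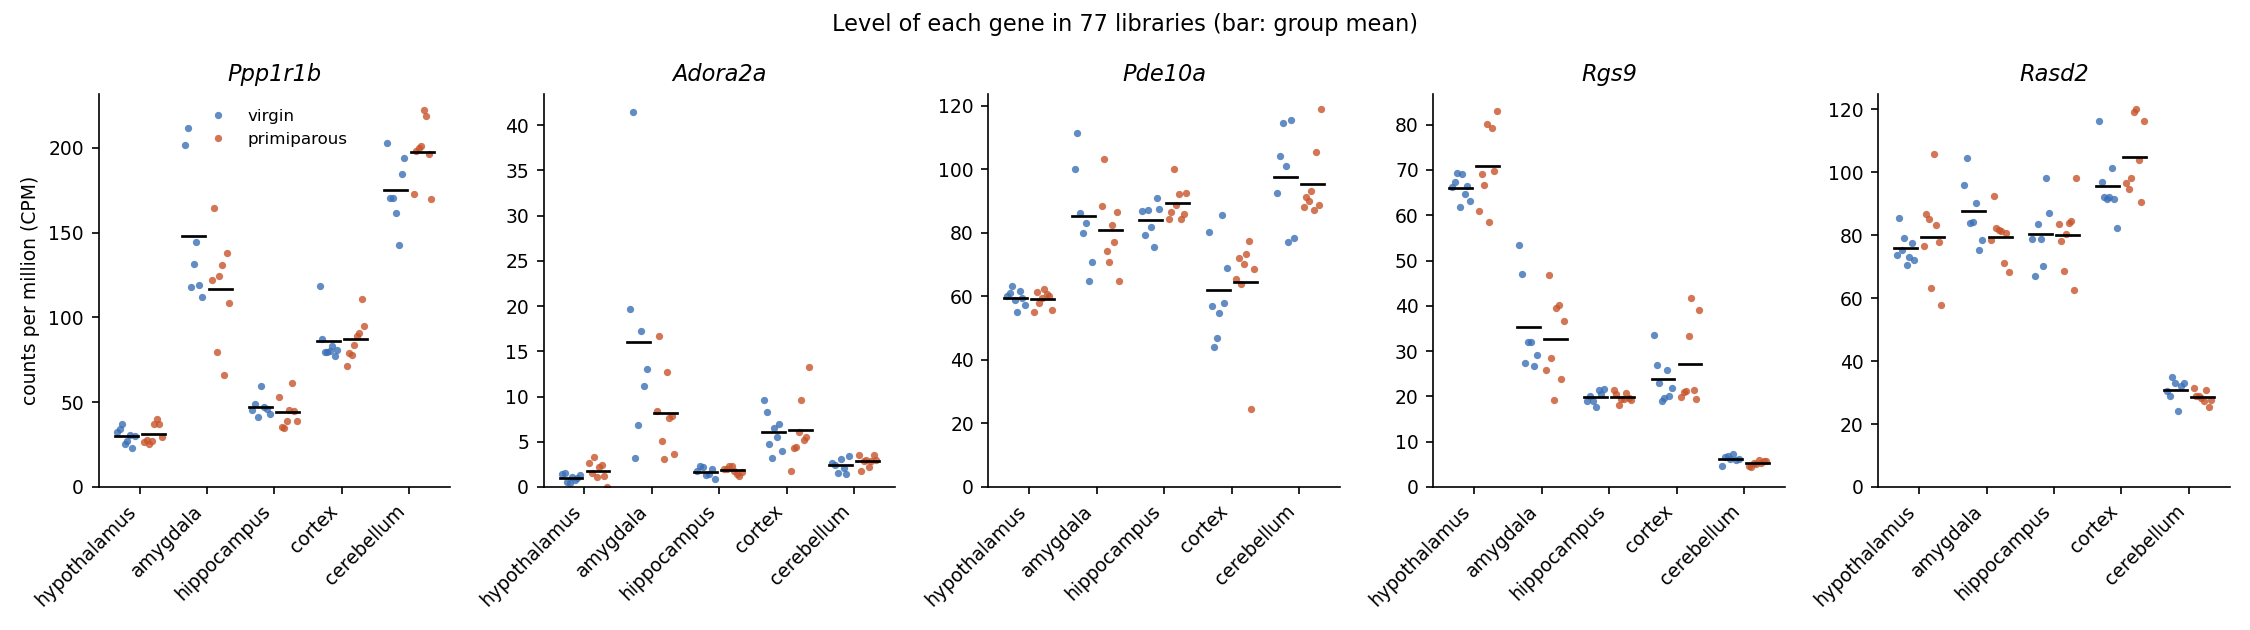
Level of Ppp1r1b, Adora2a, Pde10a, Rgs9 and Rasd2 (y axis, CPM, linear from 0, with its own range per panel) in each of the 77 libraries by region (x axis), with virgin females in blue, primiparous females in orange and black bars at group means. The highest Adora2a point, at 41.4 CPM, is the amygdala library of virgin female 409, and the lowest cortical Pde10a point, at 24.7 CPM, is that of primiparous female 427.

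Adora2a (chr10:75316877-75334784, plus strand, GRCm38) had the lowest mean level per kilobase of exon of the 5 in every region over both states. In the cerebellum it lay close below Rgs9 (0.862 against 0.895 CPM per kilobase), and among primiparous cerebellar libraries above Rgs9 (0.935 against 0.829). Its level in the amygdala ran from 3.14 CPM through a median of 8.42 CPM to 41.4 CPM (mean 11.9 ± 9.72 CPM, SD, n = 15). In the cortex it ran from 1.80 through 5.48 to 13.2 CPM (6.18 ± 2.86 CPM, n = 16). In the cerebellum it ran from 1.44 through 2.89 to 3.53 CPM (2.64 ± 0.680 CPM, n = 15). The amygdala and cortex thus had the highest levels and also overlapped each other. The hippocampus held 0.838 to 2.34 CPM (1.79 ± 0.447 CPM, n = 15) and the hypothalamus 0 to 3.29 CPM (1.42 ± 0.860 CPM, n = 16). The hypothalamic library without a read, from primiparous female 4493, had 19553259 counted reads, which allows a level of up to 0.153 CPM if 3 counts are taken as the limit, for counting error only. Adora2a was higher in the amygdala than in the cortex by 0.93 on the log2 scale (SE 0.24, edgeR adjusted p = 0.000464), and by 0.61 (adjusted p = 0.0178) without virgin females 405 and 409. Of neighbours in the order, hippocampus and hypothalamus (log2 difference of hypothalamus against hippocampus -0.49, 95% interval -1.07 to 0.08, edgeR adjusted p = 0.113) and hippocampus and cerebellum (-0.43, -0.96 to 0.11, adjusted p = 0.143) did not differ beyond their spread. Hippocampus against cerebellum was called with library totals, however, as given further on.

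Pde10a (chr17:8525372-8986648, plus strand) covered the narrowest range of regional levels. The cerebellum held 77.1 to 119 CPM with a median of 92.7 CPM (96.5 ± 13.04 CPM, n = 15). The hippocampus held 75.5 to 100.0 CPM with a median of 86.9 CPM (87.0 ± 5.85 CPM, n = 15), and the amygdala 64.8 to 111 CPM with a median of 82.4 CPM (83.0 ± 13.7 CPM, n = 15). These 3 regions overlapped, and none of the differences between them was called (edgeR adjusted p = 0.395 to 0.884), although amygdala against cerebellum was with library totals (log2 -0.22, adjusted p = 0.0155). The cortex held 24.7 to 85.7 CPM with a median of 67.1 CPM (63.2 ± 15.4 CPM, n = 16). The hypothalamus, with 54.9 to 63.4 CPM and a median of 59.8 CPM (59.3 ± 2.58 CPM, n = 16), lay below every hippocampal, amygdalar and cerebellar library. The difference of hypothalamus against cortex was small (log2 -0.21, SE 0.09, edgeR adjusted p = 0.0230) and was not called with limma-voom (-0.15, adjusted p = 0.140) or with library totals in place of TMM factors (-0.09, adjusted p = 0.320).

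Ppp1r1b (chr11:98348404-98357796, plus strand) was highest in the cerebellum. There it ran from 143 through a median of 194 to 222 CPM (187 ± 22.0 CPM, n = 15). The amygdala held 65.8 to 212 CPM with a median of 125 CPM (131 ± 38.8 CPM, n = 15), and the cortex 71.3 to 119 CPM with a median of 82.1 CPM (86.6 ± 12.5 CPM, n = 16). The amygdala overlapped both of its neighbours in this order, while cerebellum and cortex did not overlap. The hippocampus held 34.8 to 61.1 CPM (45.6 ± 7.79 CPM, n = 15) and the hypothalamus 23.2 to 39.8 CPM (30.7 ± 5.10 CPM, n = 16). All 10 differences between regions were called, and the smallest was amygdala against cerebellum (log2 -0.36, SE 0.09, edgeR adjusted p = 0.000326), which was -0.49 without virgin females 405 and 409. A noncoding transcript on the opposite strand, 1700003D09Rik, shares 460 exon bases with Ppp1r1b, and whether reads were counted by strand is not given in the sources used here.

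Rgs9 (chr11:109225355-109298129, minus strand) was highest in the hypothalamus, the region where Ppp1r1b was lowest. The hypothalamus held 58.6 to 83.0 CPM with a median of 67.0 CPM (68.5 ± 6.94 CPM, n = 16), above every library of the other regions. The amygdala held 19.3 to 53.5 CPM with a median of 32.0 CPM (33.9 ± 9.75 CPM, n = 15), and the cortex 19.0 to 41.7 CPM with a median of 21.7 CPM (25.4 ± 7.41 CPM, n = 16). Amygdala, cortex and hippocampus overlapped, although each difference between them was called. The hippocampus was even, with 17.7 to 21.7 CPM (19.9 ± 1.19 CPM, n = 15), and the cerebellum held 4.50 to 7.19 CPM (5.72 ± 0.813 CPM, n = 15). Between hypothalamus and cerebellum the log2 difference was 3.57 (SE 0.11, edgeR adjusted p = 2.67e-44), the largest for any of the 5 genes.

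Rasd2 (chr8:75213944-75224113, plus strand) was highest in the cortex and was lower in the cerebellum than in any forebrain region. The cortex held 82.4 to 120 CPM with a median of 96.6 CPM (100.2 ± 11.7 CPM, n = 16). The amygdala held 68.5 to 104 CPM with a median of 81.7 CPM (83.3 ± 9.38 CPM, n = 15), the hippocampus 62.6 to 98.3 CPM with a median of 80.5 CPM (80.3 ± 10.2 CPM, n = 15) and the hypothalamus 57.9 to 106 CPM with a median of 77.04 CPM (77.7 ± 10.8 CPM, n = 16). The cerebellum, with 24.1 to 34.9 CPM and a median of 29.0 CPM (29.7 ± 2.96 CPM, n = 15), did not overlap any of them. Against the cortex, the hypothalamus (log2 -0.48, edgeR adjusted p = 2.66e-11), the hippocampus (-0.29, adjusted p = 2.31e-05) and the amygdala (-0.24, adjusted p = 0.000544) were each lower. Amygdala and hippocampus did not differ beyond their spread (log2 0.05, 95% interval -0.07 to 0.18, edgeR adjusted p = 0.477). The hypothalamus was lower than the amygdala (log2 -0.24, edgeR adjusted p = 0.000283) and the hippocampus (-0.19, adjusted p = 0.00370), and neither call held with library totals in place of TMM factors (-0.10, adjusted p = 0.106, and -0.05, adjusted p = 0.455).

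The genes whose log2(CPM + 4) followed that of a member most closely over the 77 libraries were found by Pearson's r, which is given as a description because the libraries share region and sequencing pool. For Rgs9 they were Rab36 (r = 0.96), the opioid precursor Pdyn (0.96), which is itself made by medium spiny neurons, and 6330403K07Rik (0.96). For Rasd2 they were Bmerb1, Myrip and Dmtn (each 0.96), and for Ppp1r1b Man1c1 (0.93), Sla (0.91) and Ackr1 (0.91). Pde10a and Adora2a had less close neighbours, with Cers6 (0.84), Peak1 (0.83) and Spred2 (0.82) for Pde10a and Plxnd1 (0.81), Igfn1 (0.77) and Ptn (0.76) for Adora2a.

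The libraries also held other genes of the medium spiny neuron, and those with the highest mean CPM, which also depends on a gene's length, are named here for each region. In the amygdala they were Arpp21 (491 CPM), Adcy5 (317), Gnal (242) and Gng7 (209), and in the cortex Arpp21 (351), Ptpn5 (185), Pde1b (166) and Adcy5 (158). In the hypothalamus they were Adcy5 (233), Gnal (210), Ptpn5 (158) and Pde1b (139), and in the hippocampus Gng7 (223), Bcl11b (195), Adcy5 (156) and Gnal (147). In the cerebellum they were Gnal (205), Scn4b (141), Penk (103) and Arpp21 (74.0). Adcy5, Gnal and Gng7 encode the adenylyl cyclase and G protein subunits that couple dopamine and adenosine receptors to cyclic AMP, and Arpp21 and Pde1b are likewise parts of this route. Of the 26 listed genes, 25 passed the filter, and in amygdala against cortex 19 were higher and 3 lower in the amygdala (edgeR, 62.5% of all genes called), with a median log2 difference of 0.85 against 0.00 over all genes.

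Promoter sequences are shown for the members whose levels varied together between amygdala or cortex libraries, as described further on, as far as the RefSeq table for GRCm38.p6 held them. It matched 3 of the 5 genes, with 2 start sites for Pde10a, and each window runs from 250 bases before to 50 bases after the RefSeq start, 5′ to 3′ on the gene's strand. Gene positions given above are GENCODE's, and the RefSeq start of Rgs9 lies upstream of the GENCODE start. Both Pde10a windows lie within the GENCODE gene, far downstream of the start given above, and neither covers that start. Capitals mark exact matches, on either strand, to the motifs TGACGTCA, which is the cyclic AMP response element, TATAAA, which is known from core promoters, CCAAT, which is bound by NF-Y, GGGCGG, which is the GC box, and CAGCTG, which is an E-box.
Rgs9, chr11:109298132-109298431, minus strand: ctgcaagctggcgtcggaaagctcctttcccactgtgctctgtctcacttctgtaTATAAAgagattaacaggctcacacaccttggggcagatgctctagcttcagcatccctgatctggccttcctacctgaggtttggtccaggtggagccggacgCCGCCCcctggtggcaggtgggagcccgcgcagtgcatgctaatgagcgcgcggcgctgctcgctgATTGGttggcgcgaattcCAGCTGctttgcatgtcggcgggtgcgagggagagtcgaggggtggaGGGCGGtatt
Pde10a, chr17:8801495-8801794, plus strand: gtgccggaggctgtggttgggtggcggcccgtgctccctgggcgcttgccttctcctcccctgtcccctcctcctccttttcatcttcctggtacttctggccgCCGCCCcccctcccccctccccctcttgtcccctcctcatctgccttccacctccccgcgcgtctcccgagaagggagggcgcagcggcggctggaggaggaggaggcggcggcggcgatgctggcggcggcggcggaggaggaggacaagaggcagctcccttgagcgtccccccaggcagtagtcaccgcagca
Pde10a, chr17:8849735-8850034, plus strand: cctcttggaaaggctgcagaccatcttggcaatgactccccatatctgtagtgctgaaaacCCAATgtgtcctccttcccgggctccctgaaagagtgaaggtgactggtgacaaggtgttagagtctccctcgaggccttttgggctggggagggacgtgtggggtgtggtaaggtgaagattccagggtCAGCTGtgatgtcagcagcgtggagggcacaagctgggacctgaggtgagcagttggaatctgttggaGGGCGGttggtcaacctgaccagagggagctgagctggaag
Rasd2, chr8:75213694-75213993, plus strand: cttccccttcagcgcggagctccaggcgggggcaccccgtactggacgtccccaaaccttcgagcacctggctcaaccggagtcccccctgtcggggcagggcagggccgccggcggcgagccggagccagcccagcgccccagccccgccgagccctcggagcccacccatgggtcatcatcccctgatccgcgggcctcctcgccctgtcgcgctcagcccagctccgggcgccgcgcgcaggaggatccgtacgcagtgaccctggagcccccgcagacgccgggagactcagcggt
None of the 4 windows held TGACGTCA, which was in 1.79% of the 32851 promoters in the table. The Rgs9 window held 1 TATAAA (in 13.6% of all promoters), 1 CCAAT (in 37.4% of them), 1 E-box (in 16.3%) and 2 GC boxes (in 35.7%). Of the Pde10a windows, the upstream window held 1 GC box, and the downstream window held 1 CCAAT motif, 1 E-box and 1 GC box. The Rasd2 window held none of the 5 motifs, and none was shared by all windows. GC content was 74.7% for Rasd2, 71.3% and 56.7% for Pde10a and 60.3% for Rgs9. These letters are a description of the windows and not of binding.

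The largest spreads of log2(CPM + 4) between libraries of 1 region lay in the amygdala and cortex. They were those of Adora2a, Ppp1r1b and Rgs9 in the amygdala and of Pde10a, Adora2a and Rgs9 in the cortex. The SD of log2(CPM + 4) between the 15 amygdala libraries was 0.75 for Adora2a, 0.42 for Ppp1r1b and 0.36 for Rgs9, against a median of 0.17 over all 13016 genes. These values lie at percentiles 99.9, 99.0 and 97.6 of all genes, while Pde10a (SD 0.23, percentile 78.7) and Rasd2 (SD 0.16, percentile 41.1) spread less. Without virgin females 405 and 409, a choice made after seeing the data, the SDs over 13 libraries were 0.55 for Adora2a (percentile 99.7), 0.34 for Ppp1r1b (97.2), 0.30 for Rgs9 (94.6), 0.19 for Pde10a (64.7) and 0.13 for Rasd2 (21.4). In the cortex Pde10a (SD 0.42, percentile 98.1), Adora2a (SD 0.40, percentile 97.9) and Rgs9 (SD 0.35, percentile 96.4) were among the most uneven genes, and Ppp1r1b (SD 0.20, percentile 66.9) and Rasd2 (SD 0.18, percentile 55.6) were not. Some of these genes were even elsewhere: Pde10a lay at percentile 1.44 in the hypothalamus and Rgs9 at percentile 5.81 in the hippocampus. In the hippocampus Ppp1r1b (SD 0.22, percentile 95.7) and Rasd2 (SD 0.17, percentile 88.1) were uneven. In the hypothalamus Adora2a (SD 0.21, percentile 84.1), Ppp1r1b (SD 0.21, percentile 81.4) and Rasd2 (SD 0.19, percentile 72.6) lay above the median gene, and the SD of Rasd2 was larger there than in the other regions. In the cerebellum all 5 lay between percentiles 35.1 and 83.7. For Adora2a the order of regions depends on the scale, since the added 4 narrows the spread of low levels. Its SD as a percentage of the mean CPM was 82.0% in the amygdala, 60.6% in the hypothalamus and 46.2% in the cortex. It was 25.0% in the hippocampus and 25.8% in the cerebellum.

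**Figure D2:**
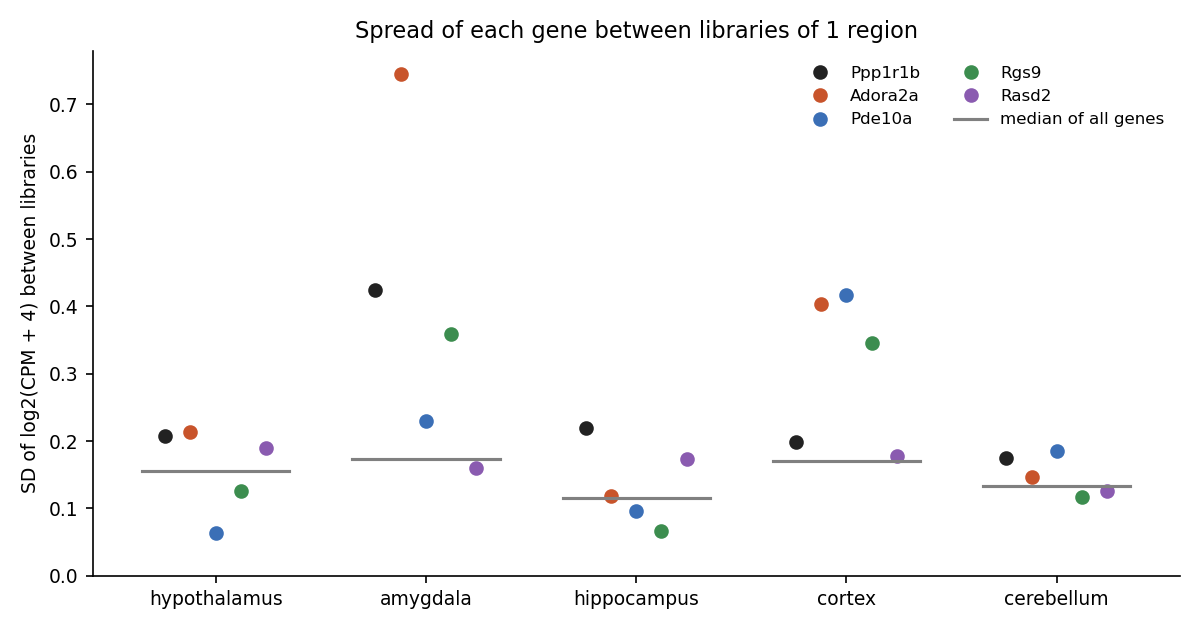
Spread of each gene between the libraries of a region (y axis, SD of log2(CPM + 4), from 0) by region (x axis), with 1 colour per gene and a grey line at the median of all 13016 genes. Adora2a in the amygdala, at 0.75, is the highest point, and Ppp1r1b and Rgs9 in the amygdala and Adora2a, Pde10a and Rgs9 in the cortex stand next. The added 4 narrows the spread of low levels, as of Adora2a outside the amygdala and cortex.

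In the amygdala the 5 genes varied together between libraries. Pearson's r of log2(CPM + 4) was positive for all 10 pairs of members, with a median of 0.67 and a range of 0.39 to 0.85 over 15 libraries. For Pde10a and Rasd2 r was 0.85 (permutation p = 6.00e-05, adjusted p = 0.00150 over the 50 relations of 10 pairs in 5 regions) and Spearman's rho 0.76 (p = 0.00163, adjusted p = 0.0272), with r = 0.76 without the 2 libraries farthest from the median. For Ppp1r1b and Rasd2 r was 0.80 (permutation p = 0.000530, adjusted p = 0.00662) and rho 0.83 (p = 0.000230, adjusted p = 0.0115), with r = 0.62 without the 2 farthest. In all, 7 of the 10 pairs had an adjusted p of r under 0.05, and 3 of 10 an adjusted p of rho. Of all pairs of tested genes, 2.75% had an r at least as large in size as the weakest of these 7 (0.65). The calls rest on virgin females 405 and 409, whose removal was chosen after seeing the data: without these libraries 0 of 10 pairs were called, with 9 of 10 positive and a median r of 0.39. Within the 7 virgin libraries the median r was 0.83 with 2 pairs called, and within the 8 primiparous libraries 0.58 with 0 pairs called, by exact permutation tests.

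The amygdala libraries of virgin females 405 and 409 held the highest levels of all 5 genes among 15, with 1 exception for Pde10a, where primiparous female 415 (103 CPM) lay above 405 (100.1 CPM). Their Ppp1r1b was 202 and 212 CPM, against 65.8 to 165 CPM in the other 13 libraries. Their Adora2a was 19.6 and 41.4 CPM against 3.14 to 17.2 CPM, and their Rgs9 53.5 and 47.1 CPM against 19.3 to 46.8 CPM. Their Rasd2 was 96.1 and 104 CPM against 68.5 to 92.4 CPM, so that the groups of libraries came close there without overlapping. Of 26 other genes of the medium spiny neuron, a list drawn up when results of these data were known and so no independent support, 15 were higher in 409 than in all 13 other libraries and 11 in 405, against 10.7% and 12.8% of all 13016 genes. Their sum was 2757 CPM in 409 and 2585 CPM in 405, against 1993 to 2639 CPM, so that 405 lay within the range of the others. Drd1 in 409 (21.04 CPM) lay within it too (14.2 to 27.7 CPM). Among the genes above it in both were Six3, a transcription factor of striatal neurons (24.7 and 25.98 CPM against 6.69 to 15.4 CPM), Penk, the enkephalin precursor (261 and 270.2 CPM against 126 to 204 CPM), and Drd2, a dopamine receptor (9.77 and 12.9 CPM against 1.91 to 9.21 CPM). The 3 cholinergic neuron markers Chat, Slc5a7 and Slc18a3 summed to 27.4 and 26.3 CPM against 1.05 to 11.4 CPM, and each of the 3 was higher in both than in any other amygdala library. Their defining marker Chat was at 0 counts in 2 of the 15 libraries. The 5 oligodendrocyte markers summed to 3280 and 3918 CPM against 1573 to 2849 CPM, again with each marker higher in both libraries. Other lists left the range of the 13 libraries in 1 library each: immediate early genes (534 against at most 449 CPM), olfactory bulb markers (37.9 against 35.3 CPM) and endothelial markers (226 against 224 CPM) in 405, and hypothalamic markers (81.7 against 79.4 CPM) and astrocyte markers (2440 against 2375 CPM) in 409, where the partners around protein kinase A were lower (5857 against at least 5949 CPM). The 7 amygdalar markers summed to 230 and 227 CPM, within the 180 to 289 CPM of the others, and the 9 cortical excitatory neuron markers to 1535 and 1183 CPM, within 1087 to 1868 CPM. The part of these cell types in the levels of the 5 genes was not tested.

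**Figure D3:**
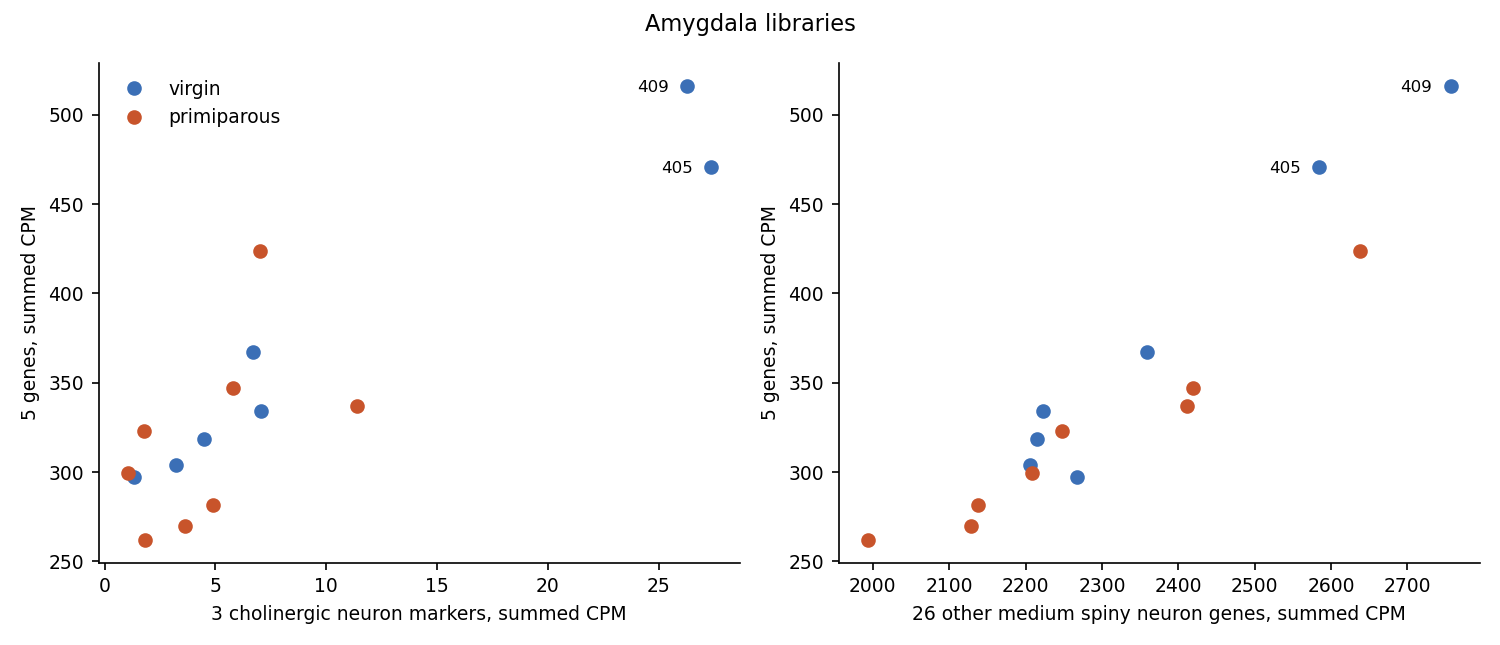
Amygdala libraries: the summed level of Ppp1r1b, Adora2a, Pde10a, Rgs9 and Rasd2 (y axis, CPM, not starting at 0) against the summed level of 3 cholinergic neuron markers (left x axis, CPM) and of 26 other medium spiny neuron genes (right x axis, CPM), with virgin females in blue and primiparous females in orange. The libraries of virgin females 405 and 409 are highest with 471 and 516 CPM of the 5 genes, above primiparous female 415 with 424 CPM, and stand apart along the left x axis, while on the right x axis 415 (2639 CPM) lies beyond 405 (2585 CPM).

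The mean of the members' standardised log2 levels was closely followed by Sertad4 (r = 0.92), the sodium channel subunit Scn4b (0.91), Penk (0.90) and Pdyn (0.88). Over 25 tested genes of the list of other medium spiny neuron genes, which holds 3 of these 4, r was positive for 25 with a median of 0.51, against a median of 0.00 over all 13011 other genes. Without virgin females 405 and 409, r was 0.79 for Sertad4, 0.86 for Scn4b, 0.76 for Penk and 0.67 for Pdyn, and 20 of the 25 listed genes had a positive r, with a median of 0.44 against 0.01 over all other genes. These r are a description and no test.

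In the cortex 4 of 10 pairs were called by r and 2 by rho, and 9 were positive, with a median r of 0.53 over 16 libraries. Among all pairs of tested genes 19.8% reached the size of the weakest of these 4 (0.62), so that large r were common in this region. With a pseudocount of 1 or with library totals, 2 pairs were called. For Rgs9 and Rasd2 r was 0.88 (permutation p = 2.00e-05, adjusted p = 0.00100) and rho 0.72 (p = 0.00222, adjusted p = 0.0277), with r = 0.77 without the 2 farthest libraries. For Adora2a and Rgs9 r was 0.78 (permutation p = 0.000260, adjusted p = 0.00433) and rho 0.64 (p = 0.00930, adjusted p = 0.0517), with r = 0.74 without the 2 farthest. The library of primiparous female 427 went against the others: it had the lowest Pde10a (24.7 CPM, with the next at 44.1 CPM) and the lowest Rgs9 but one, and the Ppp1r1b level of 111 CPM was exceeded only by virgin female 405 (119 CPM). Without 427, 7 of 10 pairs were called with a median r of 0.67, and without virgin female 405, 2 pairs with a median r of 0.48. Within the 8 virgin libraries 1 pair was called (median r 0.68) and within the 8 primiparous libraries 1 (0.50), by exact permutation tests.

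The cortical libraries with the most of the 5 genes were those of virgin female 405 (358 CPM summed), primiparous female 421 (334 CPM) and primiparous female 4493 (332 CPM), and the other 13 held 240.1 to 312 CPM. Closest to the members' mean were Lrrc10b (r = 0.93), Drd2 (0.90), Six3 (0.89), Trim3 (0.86) and Stk11ip (0.85). Of the 25 other medium spiny neuron genes tested, 21 had a positive r, with a median of 0.42 against -0.01 over all other genes. The other medium spiny neuron genes summed to 1850 CPM in 405, 1709 CPM in 421 and 1737 CPM in 4493. Virgin females 4489 (1785 CPM) and 409 (1711 CPM) lay above 421. The oligodendrocyte markers were highest in 405 (5127 CPM), lowest in 421 (3737 CPM) and at 5004 CPM in 4493. The cholinergic markers stayed at 1.02 to 2.88 CPM summed in all 16 cortical libraries. The olfactory bulb markers, at 37.3 CPM in 405, 317 CPM in 421 and 201 CPM in 4493, were spread over most of their range in these 3 libraries. The part of these marker lists in the result was not tested.

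Fewer pairs were called in the other regions. In the hypothalamus 1 of 10 pairs was called, while 9.74% of all gene pairs had an r as large in size, Rgs9 and Rasd2 with r = -0.64 (permutation p = 0.00779, adjusted p = 0.0391). It rests on few libraries, since rho was -0.34 (p = 0.197, adjusted p = 0.352) and r without the 2 farthest libraries, of primiparous females 418 and 4493, was -0.27. In the hippocampus and the cerebellum 0 of 10 pairs each were called by r, with median r of -0.02 and -0.07, and by rho 1 and 0. The 25 other medium spiny neuron genes had a median r to the members' mean of 0.06 in the hypothalamus, 0.06 in the hippocampus and -0.03 in the cerebellum, close to that of all genes (0.02, 0.02 and 0.01). The genes closest to that mean were other than in the amygdala and cortex, led by Mrpl4, Akt2, Znfx1, Zfp628 and Tgfb3 in the hypothalamus (r = 0.86 to 0.87), Ndufs8, Fkbp4, Ehd1 and Mef2d in the hippocampus (0.87 to 0.90) and Tmem104, Brsk2, St6galnac4, Acd and Rbck1 in the cerebellum (0.88 to 0.89). None of the genes named here was on the list of other medium spiny neuron genes.

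**Figure D4:**
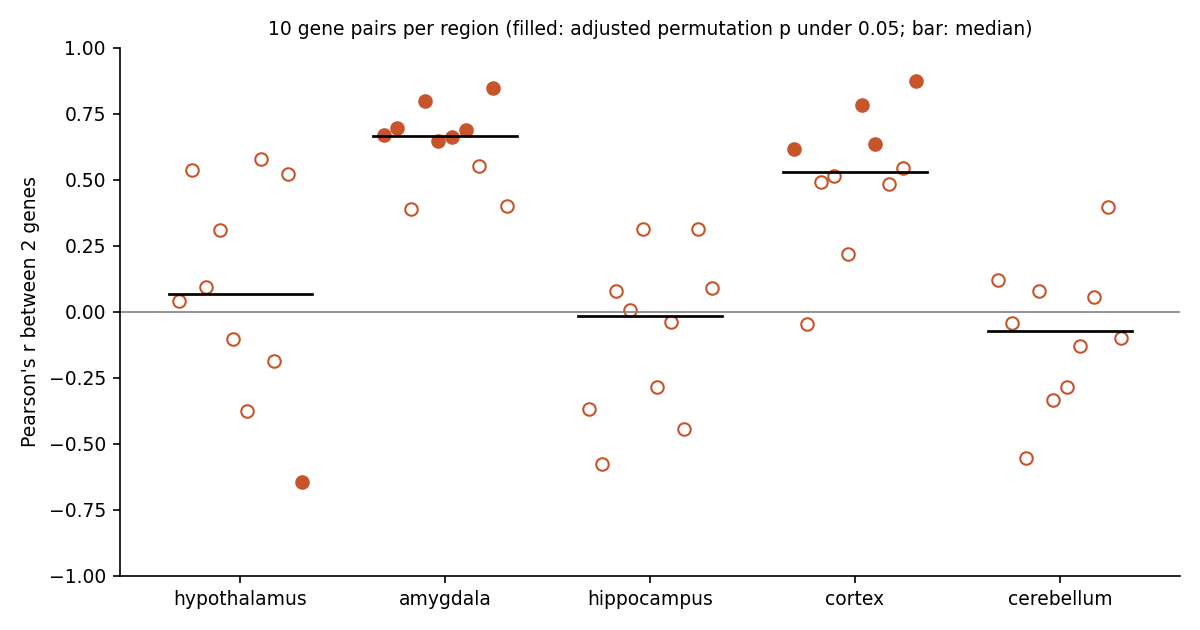
Pearson's r of log2(CPM + 4) between libraries for the 10 pairs of the 5 genes (y axis) in each region (x axis), filled where the adjusted permutation p was under 0.05, with black bars at the median. The amygdala has 7 filled points and the cortex 4, all positive, and the hypothalamus 1, at -0.64.

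Virgin and primiparous females were then compared within each region to ask whether reproductive experience left a difference in these genes. None of the 25 comparisons was called by edgeR, where adjusted p ran from 0.175 to 0.994 and 1 unadjusted p was under 0.05, and none by limma-voom or DESeq2. In the hypothalamus 0 of 5 were called against 22.6% of all genes, and in the cerebellum 0 of 5 against 0.707%. In the amygdala, hippocampus and cortex 0 of 5 were called, as were 0% of all genes. In every region and for every gene the levels of the states overlapped. The share of all genes with such an overlap is not given here, so this says nothing particular to the 5 genes. An interaction term gave the difference of 2 regions in their state effect, and 0 of 50 such tests were called (9 unadjusted p under 0.05, lowest adjusted p 0.0612), also with limma-voom. In hypothalamus minus cerebellum, Rgs9 was called with library totals and Ppp1r1b with the animal as a block plus a length and GC offset. The shares of all genes called under these alternatives are not given here, so these calls say nothing particular to the members. In the main fits, the background for hypothalamus minus amygdala, hippocampus, cortex and cerebellum was 18.2%, 17.2%, 0% and 15.5% of all genes. For amygdala minus hippocampus, cortex and cerebellum it was 0%, 1.11% and 0.415%, for hippocampus minus cortex and cerebellum 0% and 0.169%, and for cortex minus cerebellum 0.00768%.

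**Figure D5:**
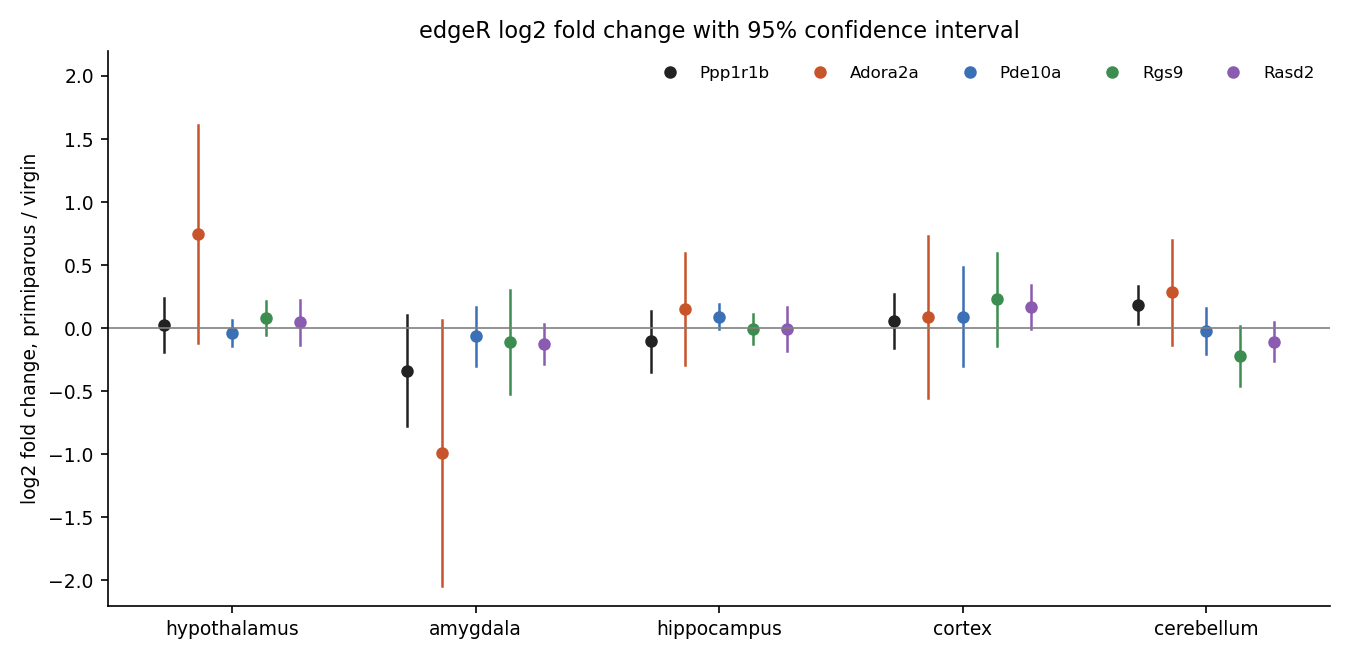
Log2 fold change of primiparous against virgin females (y axis, edgeR, points) with 95% confidence intervals (lines) for the 5 genes in each region (x axis). Only the interval of Ppp1r1b in the cerebellum (0.03 to 0.33) leaves out 0, and the widest interval is that of Adora2a in the amygdala (-2.04 to 0.07).

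Adora2a gave the largest differences between the states and the least certain ones. In the amygdala it ran from 3.20 through a median of 13.1 to 41.4 CPM in 7 virgin libraries and from 3.14 through 7.73 to 16.7 CPM in 8 primiparous libraries. The primiparous range lay almost wholly within the virgin range, and 7 of 8 primiparous libraries were below the virgin mean. That mean, 16.1 CPM, is raised by virgin female 409 at 41.4 CPM. Without 405 and 409 the virgin mean was 10.3 CPM, against 8.16 CPM in primiparous libraries. The log2 fold change was -0.99 (SE 0.49, edgeR adjusted p = 0.448), and -0.34 (adjusted p = 0.865) without virgin females 405 and 409. In the hypothalamus Adora2a ran from 0.473 through 1.04 to 1.54 CPM in virgin and from 0 through 1.87 to 3.29 CPM in primiparous libraries. There 5 of 8 primiparous libraries lay above every virgin library and 1 below. The log2 fold change was 0.75 (SE 0.42, edgeR adjusted p = 0.197) on 0 to 65 reads per library. Without primiparous female 4493, which had 0 reads, it was 0.96 and called (edgeR adjusted p = 0.0216), while it was -0.01 with limma-voom (adjusted p = 0.992) and -0.21 with the number series of the animals as a covariate (adjusted p = 0.881). The share of all genes called without 4493 is not given here.

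Ppp1r1b in the cerebellum had the smallest p of the 25. It ran from 143 through a median of 171 to 203 CPM in 7 virgin libraries and from 170 through 199 to 222 CPM in 8 primiparous libraries. Of the primiparous libraries 6 of 8 were above the virgin mean and 2 above every virgin library. The log2 fold change was 0.18 (SE 0.07, edgeR adjusted p = 0.175), with 0.07 (adjusted p = 0.946) when the number series was a covariate. In the amygdala Ppp1r1b ran from 112 through 131 to 212 CPM in virgin and from 65.8 through 123 to 165 CPM in primiparous libraries. Here 3 of 8 primiparous libraries were below every virgin library. The log2 fold change was -0.34 (SE 0.20, edgeR adjusted p = 0.554), and -0.09 (adjusted p = 0.922) without 405 and 409.

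All 5 log2 fold changes were negative in the amygdala, with a median of -0.13 against 0.00 over all genes. Without 405 and 409, 3 of 5 were negative and the median was -0.04, and Pde10a (0.08) and Rgs9 (0.15) were then positive. Of the 25 other medium spiny neuron genes tested, 19 were negative with a median of -0.19, and 14 with a median of -0.05 without 405 and 409, and 0 were called by edgeR either way (5 and 2 unadjusted p under 0.05). In the cortex all 5 members had positive values, from 0.06 for Ppp1r1b to 0.23 for Rgs9 (edgeR adjusted p = 0.5005 to 0.915), and 12 of the 25 other genes did. Rasd2 was the closest to the threshold there, with 82.4 to 116 CPM (median 92.1) in virgin and 90.5 to 120 CPM (median 101) in primiparous libraries, of which 3 of 8 lay above every virgin library. Its log2 fold change was 0.17 (SE 0.08, edgeR adjusted p = 0.5005). Rgs9 in the cerebellum was below the virgin mean in 8 of 8 primiparous libraries, with a log2 fold change of -0.22 (SE 0.12, edgeR adjusted p = 0.293). Pde10a in the hippocampus was above the virgin mean in 8 of 8, with 0.09 (SE 0.05, adjusted p = 0.727). Pde10a in the hypothalamus, the most even of all, was bounded tightly at -0.04 (95% interval -0.14 to 0.06).

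The genes that act with the members were tested in the same fits. Of the other medium spiny neuron genes, 0 of 25 were called in the amygdala, hippocampus and cortex (0% of all genes) and the cerebellum (0.707%), and 1 in the hypothalamus (22.6%), Gnal, the G protein subunit that couples dopamine and adenosine receptors to adenylyl cyclase, which was lower in primiparous females (log2 -0.22, SE 0.05, edgeR adjusted p = 0.00379). Gnal was called under 24 of 25 alternatives, the length and GC correction among them (adjusted p = 0.00209 with edgeR). Most of the alternatives left out 1 library in turn, and all used the same libraries, so they are not separate checks. Gnal was not called with the number series as a covariate (log2 -0.17, SE 0.06, edgeR adjusted p = 0.199). The number series largely follows the state, so that fit can hardly tell series and state apart. Of 19 tested partners around protein kinase A and the phosphatases, 3 were higher and 7 lower in the hypothalamus (22.6% of all genes called), with a median of -0.09 against 0.01 over all genes. The lower ones included the calcineurin subunits Ppp3cb (-0.39, SE 0.07, edgeR adjusted p = 0.00124) and Ppp3r1 (-0.33, SE 0.07, adjusted p = 0.00268), the kinase subunit Prkar2b (-0.31, SE 0.06, adjusted p = 0.00210) and the phosphatase-1 subunit Ppp1cb (-0.34, SE 0.07, adjusted p = 0.00288). Also lower were Rgs7bp (-0.37, edgeR adjusted p = 0.00876), the kinase subunit Prkacb (-0.17, adjusted p = 0.0118) and the phosphodiesterase Pde4b (-0.16, adjusted p = 0.0275). The higher ones were the phosphodiesterase Pde2a (0.20) and the kinase subunits Prkaca (0.17) and Prkar1b (0.14). With a length and GC correction 4 of the 19 were called, all lower, and with the number series as a covariate 0 of 19, as calls over all genes fell to 3.19% and 0.0230%. In the other 4 regions 0 of 19 partners were called.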

How the data were processed

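Poly(A) mRNA isolated from total RNA of 5 brain regions was sequenced, and 77 of the 80 labelled libraries were analysed here; the other 3 were not used. Per the labels and the study's methods, the authors aligned reads of 100 bases with HISAT2 and counted them per gene with featureCounts. The deposited count table holds raw read counts for 27179 genes, and a deposited log2 table, which the authors made from the counts, was read only to compare gene names. Genes were matched by Entrez number to RefSeq symbols, since deposited symbols were blank for Pde10a and differed from the Entrez number's gene in some other rows. CPM is a gene's count over the library total, and log2(CPM + 4) used TMM-adjusted totals. The 13016 genes that reached 5 CPM in 8 libraries were kept.

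Virgin and primiparous libraries were compared in each region with edgeR 4.0.16 (R 4.3.3) by the quasi-likelihood F test, all 10 groups entered 1 fit for comparisons of regions and 4 groups a fit for interactions, and p-values were adjusted by Benjamini-Hochberg over all genes, with 0.05 as the threshold. Relations between members used permutation tests with 100000 resamples (scipy 1.17.1), exact within a state. limma-voom 3.58.1, DESeq2 1.42.0, other scalings and filters and left-out libraries were alternatives. Each library was 1 animal. Mouse numbers pair the regions of 1 animal, and same-numbered libraries had median correlations of -0.02 to 0.10 in their deviations from group means over the 10 pairs of regions. The fits were also run on simulated data, the outcome of which is not given here. Named genes were the members, the closest 3 to each member and the closest 5 to the members' mean by Pearson's r, and the 4 highest of the other medium spiny neuron genes per region, and list genes called or on which a result turns. A few genes that these rules name are not reported here. The members and gene lists were chosen with earlier results of these data known. Exon lengths came from GENCODE and positions are on GRCm38.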

Additional observations from a re-analysis of the deposited data

Results flagged for a closer look

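Of the 50 groups formed by 5 genes, 5 regions and 2 states, 4 held a library far from the others of its group by Dixon's test, where chance alone flags about 1 in 20 groups, or 2.5 of 50. Adora2a in the amygdala of virgin female 409 was 41.4 CPM, the highest of its 7 libraries. Ppp1r1b was 119 CPM in the cortex of virgin female 405 and 59.8 CPM in the hippocampus of virgin female 4487, each the highest of its group. Pde10a in the cortex of primiparous female 427 was 24.7 CPM, the lowest of its 8 libraries. The cause of these values was not tested.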

How the results depend on the processing

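Libraries left out and scalings moved some counts. Without primiparous female 4493, 1 member (Adora2a, up) was called in the hypothalamus, and leaving out the other libraries in turn gave 0. In the interaction of hypothalamus minus cerebellum, 1 member was called with library totals (Rgs9, 0.35, edgeR adjusted p = 0.0364) and 1 with the replicate block plus a length and GC offset (Ppp1r1b, -0.36, adjusted p = 0.0398). In the main fits 22.6% of all genes were called in the hypothalamus and 15.5% in this interaction. The shares under these alternatives are not given here, so the counts say nothing particular to the members. With the animal as a replicate block alone, the counts of members called were unchanged in all 10 region comparisons (5, 4, 5, 5, 3, 5, 4, 5, 3 and 5) and 10 interactions (0 each). No paired analysis was possible between virgin and primiparous females because they are different animals.

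Counts of member pairs called moved most. In the amygdala (7) they were 5 with state means removed, 3 with a pseudocount of 1, 2 within virgin and 0 within primiparous libraries, and 0 without virgin females 405 and 409. Through the shared adjustment, leaving these out also took the cortex to 2 and the hypothalamus to 0. In the cortex (4) they were 3 with state means removed, 2 with a pseudocount of 1, 2 with library totals, 1 within each state, 7 without primiparous female 427 and 2 without virgin female 405. In the hypothalamus (1) they were 0 with a pseudocount of 1, with library totals and within each state. In the hippocampus (0) 1 pair was called within primiparous libraries.

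Signs turned only among values that were not called. In the amygdala, primiparous against virgin, Pde10a ran from -0.123 to 0.0148 (without virgin female 409) and Rgs9 from -0.189 to 0.0137 (without 405) as each library was left out, and they were 0.0812 and 0.153 without both 405 and 409. Adora2a in the hypothalamus turned to -0.0124 with limma-voom and -0.206 with the number series as a covariate. Between regions, Rasd2 in amygdala against hippocampus turned to -0.00205 with no low-count filter, and Pde10a in hippocampus against cerebellum to 2.8e-05 with DESeq2. With library totals, Pde10a in amygdala against cerebellum (-0.22, edgeR adjusted p = 0.0155) and Adora2a in hippocampus against cerebellum (-0.57, adjusted p = 0.0471) were called. The shares of all genes called between regions with library totals are not given here. The cause of these changed signs and calls was not tested. Adora2a rested on 0 to 65 reads per hypothalamic library.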

Other observations

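Whether a member's level in 1 region of an animal followed its level in another region was examined for 5 genes and 10 pairs of regions, over the log2(CPM + 4) of animals with both libraries. Of these 50 relations, 32 had a positive Pearson's r, the median r was 0.14, and 0 had an adjusted permutation p under 0.05 (2 unadjusted). The lowest adjusted p was shared by 2 relations of opposite sign. Rgs9 in amygdala and hippocampus of 14 animals had r = -0.65 (permutation p = 0.0142, adjusted p = 0.392) and rho = -0.49 (p = 0.0780, adjusted p = 0.756), and r = -0.52 without the 2 animals farthest from the median. Ppp1r1b in hypothalamus and cortex of 16 animals had r = 0.58 (permutation p = 0.0157, adjusted p = 0.392) and rho = 0.73 (p = 0.00182, adjusted p = 0.0910), and r = 0.71 without the 2 animals farthest from the median.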
